A study of Mus musculus with 8 samples.

Results

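Liver sinusoidal endothelial genes were followed in mouse liver as a set of 10: Stab1, Stab2, Kdr, Oit3, Lyve1, Clec4g, Fcgr2b, Gpr182, Pecam1 and Dnase1l3. A member was the array row annotated with exactly that gene symbol and no other, and all 10 of 22180 genes with such a row were found, each with 1 probe set. All 10 were among the 16635 genes tested, with group means between 6.68 and 9.04 on the log2 scale of the deposited values, above the filter value of 2.72. The data were 8 liver samples of wild-type C57BL/6 mice, each on its own Affymetrix whole-transcript array. In the rilpivirine group, 4 samples came from mice with non-alcoholic fatty liver disease given rilpivirine, an oral inhibitor of the reverse transcriptase of HIV, every day at a dose described as equivalent to that of patients. In the control group, 4 samples carried the label of the same disease and of no drug. The labels name a normal diet and a diet with 60% fat, fed for 3 months, without giving the diet of each sample, and they give no age, sex or vehicle. Nothing in them ties the samples of a group to separate mice. The p-values therefore describe only how far these replicate samples scatter, which may be technical scatter.

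Sinusoidal endothelial cells line the capillaries of the liver lobule. They have open pores in place of a continuous wall and take up waste molecules from the blood by receptor-mediated endocytosis. Stab1 and Stab2 encode the scavenger receptors stabilin 1 and stabilin 2, which clear modified proteins. Stabilin 2 also clears hyaluronan fragments, and Lyve1 encodes another hyaluronan receptor. Clec4g encodes the lectin LSECtin, and Fcgr2b the inhibitory Fc receptor that removes small immune complexes. Kdr encodes VEGF receptor 2, the main receptor of vascular endothelial growth factor A. Gpr182 encodes an atypical chemokine receptor, Pecam1 the adhesion molecule CD31 of endothelial junctions in all vessels, Oit3 a secreted zona pellucida domain protein, and Dnase1l3 a secreted nuclease that digests DNA in blood. Some of these genes are also used outside the sinusoid, such as Fcgr2b in B cells and macrophages, Pecam1 in platelets and leukocytes and Lyve1 in lymphatic vessels. In whole liver RNA, fewer cells of a type and less RNA per cell cannot be told apart.

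Sequences before start sites of Stab1, Stab2 and Clec4g are shown because these genes code for uptake receptors of the sinusoid with higher means in the rilpivirine group, described below, and hold the motif searched. RefSeq promoter windows of the GRCm38.p6 build were given for 5 of the 10 genes, these and Kdr and Fcgr2b. Each run holds the 250 bases before a start site of that table, on the strand of the gene, which is the minus strand in these genes. The positions were chr14:31168642-31168891 for Stab1, chr10:87007943-87008192 for Stab2 and chr8:3720652-3720901 for Clec4g. The RefSeq gene models reach beyond these start sites, so the last 10, 96 and 44 bases of the runs of Stab1, Stab2 and Clec4g lie inside the gene. The window of Kdr lies wholly inside its gene model and is not shown. Capitals mark matches on either strand to AGGAAG, a core motif of ETS factors, which are widely used by endothelial genes.
Stab1: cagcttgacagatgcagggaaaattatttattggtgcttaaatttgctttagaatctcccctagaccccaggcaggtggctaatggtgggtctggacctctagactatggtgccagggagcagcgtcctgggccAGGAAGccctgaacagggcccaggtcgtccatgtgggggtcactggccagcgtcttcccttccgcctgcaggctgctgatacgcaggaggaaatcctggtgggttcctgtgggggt
Stab2: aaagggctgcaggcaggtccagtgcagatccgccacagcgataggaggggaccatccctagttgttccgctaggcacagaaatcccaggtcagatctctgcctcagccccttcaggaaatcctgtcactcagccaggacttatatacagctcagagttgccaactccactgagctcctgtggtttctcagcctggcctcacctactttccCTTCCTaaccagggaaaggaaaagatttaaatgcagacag
Clec4g: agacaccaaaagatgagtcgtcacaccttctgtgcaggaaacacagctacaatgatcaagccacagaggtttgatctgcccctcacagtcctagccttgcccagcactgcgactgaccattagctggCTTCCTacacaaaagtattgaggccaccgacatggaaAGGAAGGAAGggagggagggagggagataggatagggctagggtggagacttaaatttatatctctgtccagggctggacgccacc
The ETS letters occurred in 3 of the 5 windows, with 1 match in Stab1, 1 in Stab2 and 3 in Clec4g, of which the pair closest to the start overlap. They occurred in 29.5% of all 32851 windows of the same length. The only match in Stab2, 40 to 35 bases before its start site, lies in the bases inside the gene model. The GATA motif AGATAA, found in 9.99% of all windows, and the MAF motif TGCTGAC, found in 3.81%, had no match in the 5 windows. A match is a description of these letters and not evidence of binding.

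The mean level was higher with rilpivirine than in controls for 9 of the 10 genes, and Pecam1 was level between the groups. Kdr, Oit3, Stab2, Stab1 and Dnase1l3 had log2 differences of 0.31 to 0.43, or 1.24-fold to 1.35-fold, while Clec4g, Lyve1, Gpr182 and Fcgr2b lay between 0.10 and 0.23. The median over the 10 was 0.27, beside -0.03 over all genes tested. A difference above 0 was found in 43.1% of all genes, and in 53.7% with centred arrays. None of the 10 passed the test: the adjusted p-values ran from 0.890 to 0.999 in limma with Benjamini-Hochberg adjustment over all genes, where 0% of genes passed and the smallest adjusted p was 0.595. Before adjustment, 3 members (Kdr, Oit3 and Stab2) were higher at a p under 0.05, against 2% of all genes, and the groups overlapped in all 10 members, where 1.3% of all genes had every rilpivirine value above every control value. Over all genes 333 were higher and 534 (3.21%) lower at that unadjusted p. The share of higher genes among these was 38.4%, and 57.8% with centred arrays.

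**Figure D1:**
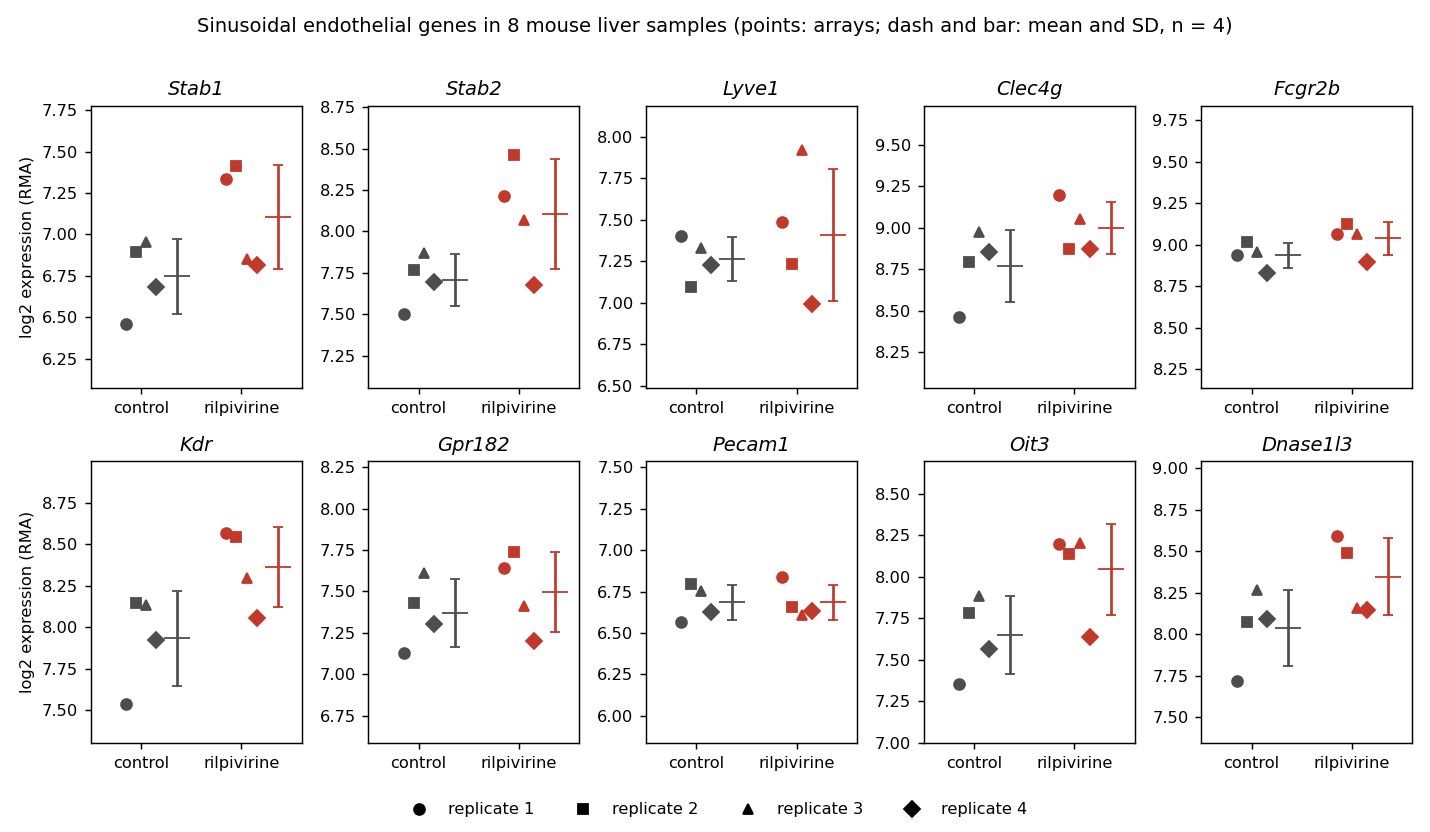
Level of each of the 10 sinusoidal endothelial genes (log2 expression, RMA) in the 4 control and 4 rilpivirine samples. Each point is an array, with a symbol for each replicate number, the dash and bar are the mean and SD of a group (n = 4), and every panel spans the same log2 range. The groups overlap in every panel, and rilpivirine replicate 4 lies among the controls or below them.

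The scavenger receptors Stab1 and Stab2 are close relatives. Stab2 measured 8.22, 8.46, 8.07 and 7.68 log2 in rilpivirine replicates 1 to 4, and 7.50, 7.77, 7.87 and 7.69 in control replicates 1 to 4. Thus 3 rilpivirine samples lay above every control, and rilpivirine replicate 4 lay among the controls. The difference was 0.40 ± 0.17 (SE, 95% confidence interval 0.03 to 0.76), with an unadjusted p of 0.0368 and an adjusted p of 0.890 in limma. Stab1 measured 7.34, 7.41, 6.85 and 6.81 log2 with rilpivirine and 6.46, 6.89, 6.95 and 6.68 in controls. Rilpivirine replicates 1 and 2 were above all controls, and replicates 3 and 4 were within the control range. Its difference was 0.36 ± 0.17 (SE, interval -0.03 to 0.74, limma adjusted p = 0.890). Without rilpivirine replicates 1 and 2 together the difference was 0.09 for Stab1 and 0.16 for Stab2. The difference between the pair within each array, Stab2 minus Stab1, was 0.04 ± 0.09 log2 (SE) larger with rilpivirine (two-sided exact permutation test over samples, p = 0.743).

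Lyve1 did not follow the stabilins across the arrays. It measured 7.48, 7.24, 7.92 and 6.99 log2 with rilpivirine and 7.40, 7.09, 7.33 and 7.23 in controls. The highest and the lowest value of all 8 samples were both in the rilpivirine group, in replicates 3 and 4, and the SD was 0.40 there against 0.13 in controls (n = 4 each). The difference was 0.14 ± 0.18 (SE, interval -0.26 to 0.55), and it was -0.03 without rilpivirine replicate 3. Lyve1 minus Stab2 within each array was 0.25 ± 0.25 log2 (SE) smaller with rilpivirine, a difference of -0.25, with an exact permutation p of 0.314.

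The lectin gene Clec4g measured 9.20, 8.87, 9.05 and 8.87 log2 with rilpivirine and 8.46, 8.79, 8.97 and 8.85 in controls. Rilpivirine replicates 1 and 3 were above every control, and control replicate 1 was the lowest sample. The difference was 0.23 ± 0.14 (SE, interval -0.08 to 0.54), and 0.13 without control replicate 1. The inhibitory Fc receptor Fcgr2b was the steadier of these receptors. It measured 9.06, 9.12, 9.07 and 8.90 log2 with rilpivirine and 8.94, 9.02, 8.96 and 8.83 in controls, a range of 0.29 over all 8 samples. Its difference was 0.10 ± 0.11 (SE, interval -0.13 to 0.34), and its interval was among the narrowest of the 10.

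Kdr had the largest difference of the 10. It measured 8.57, 8.54, 8.30 and 8.05 log2 with rilpivirine and 7.53, 8.15, 8.13 and 7.92 in controls. Rilpivirine replicates 1, 2 and 3 lay above every control, replicate 4 lay between the controls, and control replicate 1 was the lowest of the 8 samples. The difference was 0.43 ± 0.17 (SE, interval 0.06 to 0.81), with an unadjusted p of 0.0274 and an adjusted p of 0.890 in limma, and 98.9% of all genes tested had a smaller difference. Without control replicate 1 it was 0.30, and without rilpivirine replicates 1 and 2 together 0.24.

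Pecam1, the general endothelial gene of the set, measured 6.84, 6.66, 6.61 and 6.63 log2 with rilpivirine and 6.57, 6.80, 6.75 and 6.62 in controls. Both groups had a mean of 6.68, with SDs of 0.10 and 0.11 (n = 4 each). The difference was -0.00032 ± 0.11 (SE, interval -0.25 to 0.25), and its sign turned under other scalings, to 0.045 with centred arrays and 0.075 after a further quantile normalization. Kdr minus Pecam1 within each array was 0.43 ± 0.14 log2 (SE) larger with rilpivirine, and on this measure the groups did not overlap. Around the mean of the 8 arrays the 4 rilpivirine values spanned -0.04 to 0.42, and the 4 control values spanned -0.50 to -0.08. The exact permutation p was 0.0286, the smallest that 4 against 4 samples allow, and 0.0857 after adjustment over the 3 pairs compared. Both other pairs had adjusted p-values of 0.471 and 0.743 in the same exact permutation tests. These pairs were chosen with earlier results of these data known. Kdr had the largest and Pecam1 the smallest difference of the set, so the choice of this pair favoured a separation. The adjustment over 3 pairs does not cover that choice. With each control replicate left out in turn the exact permutation p was 0.0571, and with each rilpivirine replicate left out in turn 0.0286. Without rilpivirine replicates 1 and 2 together the exact permutation p was 0.133. Fewer splits are possible with samples left out, so these p-values are not directly comparable with that of all 8 arrays.

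The chemokine receptor gene Gpr182 measured 7.64, 7.74, 7.41 and 7.20 log2 with rilpivirine and 7.13, 7.43, 7.61 and 7.30 in controls. Rilpivirine replicates 1 and 2 were above all controls, and the other two were within their range. The difference was 0.13 ± 0.15 (SE, interval -0.21 to 0.46), and it was -0.06 without rilpivirine replicates 1 and 2 together.

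Of the genes of secreted proteins, Oit3 measured 8.20, 8.14, 8.21 and 7.64 log2 with rilpivirine and 7.36, 7.78, 7.89 and 7.57 in controls. Rilpivirine replicates 1 to 3 lay between 8.14 and 8.21, above every control, and replicate 4 lay among the controls. The difference was 0.40 ± 0.17 (SE, interval 0.03 to 0.76, unadjusted p = 0.0352, adjusted p = 0.890 in limma), and 0.53 without replicate 4. Dnase1l3 measured 8.60, 8.49, 8.16 and 8.15 log2 with rilpivirine and 7.72, 8.07, 8.26 and 8.09 in controls. Rilpivirine replicates 1 and 2 were above all controls, and 3 of the 4 controls were below every rilpivirine sample. Its difference was 0.31 ± 0.15 (SE, interval -0.03 to 0.65, limma adjusted p = 0.890), and 0.11 without rilpivirine replicates 1 and 2 together.

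**Figure D2:**
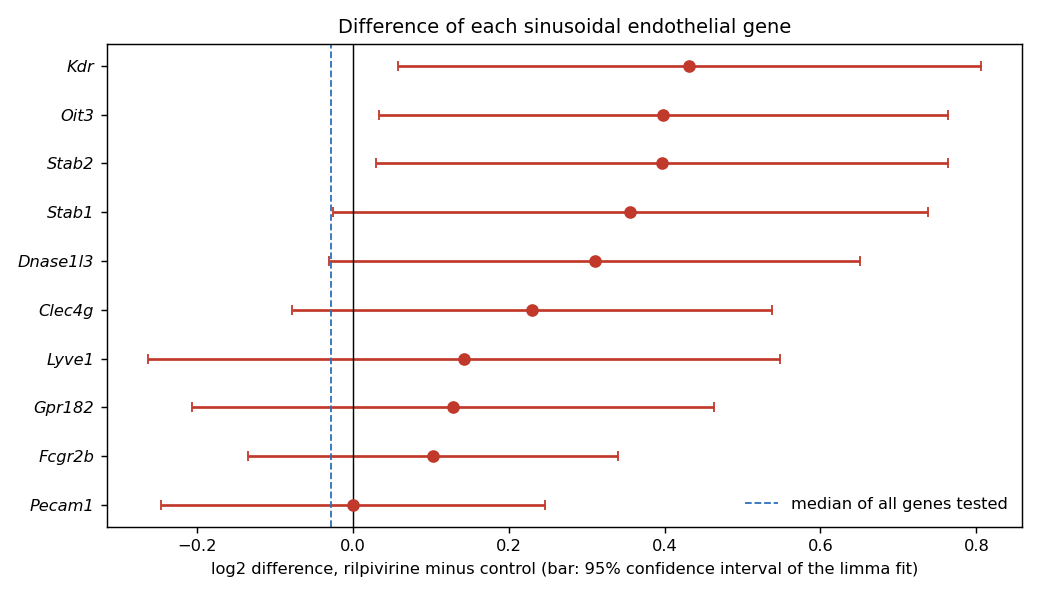
Log2 difference of each of the 10 genes, rilpivirine minus control (points), with the 95% confidence interval of the limma fit (bars). The intervals of Kdr, Oit3 and Stab2 lie above 0 before adjustment, those of the other 7 include 0, and the dashed line is the median of all genes tested at -0.03.

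The 10 genes were next set side by side within each array, as deviations from the mean of the 8 arrays. Rilpivirine replicate 1 was above every control in all 10 genes, replicate 2 in 7, replicate 3 in 6 and replicate 4 in 0. Control replicate 1 was the lowest of all 8 samples in 8 genes, the exceptions being Lyve1 and Fcgr2b. The mean deviation of the 10 was 0.28, 0.23, 0.13 and -0.14 log2 in rilpivirine replicates 1 to 4, and -0.33, -0.06, 0.04 and -0.16 in control replicates 1 to 4. Rilpivirine replicates 1 to 3 thus had the highest means and control replicate 1 the lowest, while rilpivirine replicate 4 was close to control replicate 4. Of the 3 members at an unadjusted p under 0.05, 0 were left without rilpivirine replicate 1, rilpivirine replicate 2, control replicate 1 or control replicate 4. There were 2, 4 and 5 when control replicate 2, control replicate 3 or rilpivirine replicate 4 was left out. Without rilpivirine replicate 3 there were 3 again, but Kdr, Stab1 and Dnase1l3 in place of Kdr, Oit3 and Stab2.

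**Figure D3:**
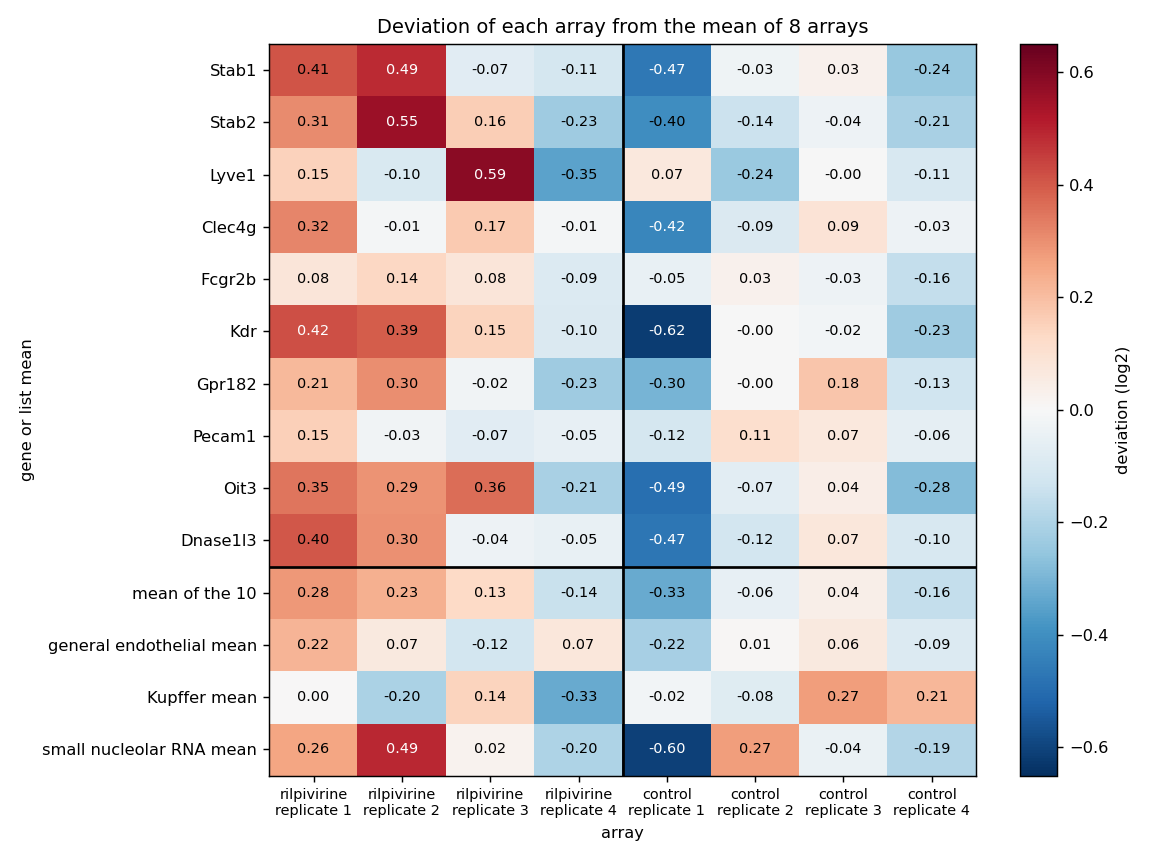
Deviation of each array (columns) from the mean of 8 arrays, in log2, for the 10 genes and for the means of the 10, of general endothelial genes, of Kupffer cell genes and of small nucleolar RNA probe sets (rows below the line). Red is above and blue below the mean. Control replicate 1 is the lowest in 8 of the 10 genes, and in the mean of small nucleolar RNAs at -0.60.

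Small nucleolar RNAs are short RNAs that guide chemical changes of ribosomal RNA. Their level and the mean of the 10 genes deviated in the same direction in most arrays, but not in control replicates 2 and 3. The mean of the 75 small nucleolar RNA probe sets deviated by 0.26, 0.49, 0.02 and -0.20 log2 in rilpivirine replicates 1 to 4 and by -0.60, 0.27, -0.04 and -0.19 in control replicates 1 to 4. With this mean as a covariate the median of the 10 genes was 0.16 in place of 0.27, and Kdr, Oit3 and Stab2 had differences of 0.22, 0.23 and 0.22. Their unadjusted p-values in limma were then 0.0987, 0.138 and 0.148, and Gpr182 had a difference of -0.03. Lyve1 went the other way, to 0.18 from 0.14. Rilpivirine replicate 2, with the highest small nucleolar RNA level, also stood apart in its mean correlation with the other arrays, 0.965 against 0.976 to 0.981. Without rilpivirine replicates 1 and 2 together the median of the 10 was 0.14. The small nucleolar RNA level was itself higher on average in the rilpivirine group, so the covariate cannot separate RNA composition from the group. The part of RNA composition in these differences was not tested.

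**Figure D4:**
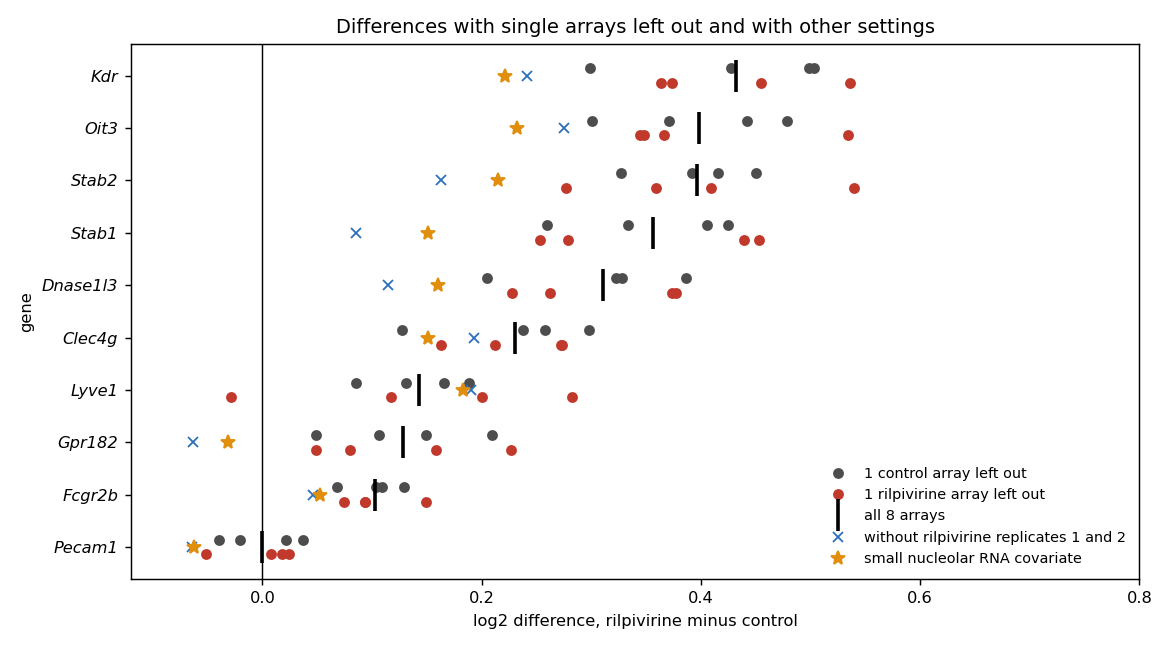
Log2 difference of each of the 10 genes, rilpivirine minus control, with all 8 arrays (black bar), with a control array left out (grey points), with a rilpivirine array left out (red points), without rilpivirine replicates 1 and 2 together (crosses) and with the small nucleolar RNA mean as a covariate (stars). Kdr, Oit3 and Stab2 stay above 0 in all of these, at 0.16 to 0.54. Stab1, Dnase1l3, Clec4g and Fcgr2b do so as well, at 0.05 to 0.45, whereas Gpr182, Lyve1 and Pecam1 have values on both sides of 0.

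The genes outside the set whose deviations lay closest to the mean of the 10 over the 8 arrays, by root mean square difference, were Zfp940, 3110039M20Rik, Ptprb, Mir142 and Hdgfl2, at 0.06 to 0.07 log2. Of these, Ptprb, a receptor phosphatase of endothelial cells, was on a list of general endothelial genes, and Zfp940 and 3110039M20Rik were dim, at control means of 2.88 and 2.64. Within the set Gpr182 lay closest to the mean of the 10, which it is part of, at 0.09 log2. Lyve1 lay farthest, at 0.27, and 7845 genes outside the set were closer than it.

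General endothelial genes were next counted in the same fit. Of 17 such genes 14 lay above 0 and 3 below, with 0 at an unadjusted p under 0.05, and the median was 0.12. It was 0.013 without rilpivirine replicates 1 and 2 together, 0.068 with the small nucleolar RNA covariate and 0.20 without rilpivirine replicate 3. The junction cadherin Cdh5 differed by 0.27 ± 0.17 and Ptprb by 0.23 ± 0.14 (SE). Emcn, an endothelial sialomucin, and Tek, the receptor of angiopoietins, differed by 0.24 ± 0.15 and 0.18 ± 0.12. The 3 lower genes, Esam, Ramp2 and Tie1, differed by -0.10 ± 0.11, -0.10 ± 0.13 and -0.04 ± 0.19 (SE). The list mean deviated by 0.22, 0.07, -0.12 and 0.07 log2 in rilpivirine replicates 1 to 4. In control replicates 1 to 4 it deviated by -0.22, 0.01, 0.06 and -0.09. Its sign was opposite to that of the mean of the 10 in rilpivirine replicates 3 and 4 and control replicate 2. Of 11 other genes used by sinusoidal endothelium, 8 were higher and 3 lower (median 0.07, and -0.02 without rilpivirine replicate 3). Among these Aqp1, a water channel, and Ehd3, an endocytic protein, differed by 0.28 ± 0.17 and 0.27 ± 0.22, and Cd55, a complement regulator, by -0.37 ± 0.23 (SE). Of 13 genes of large vessels and capillarised endothelium, 6 were higher and 7 lower (median -0.12). Leaving out rilpivirine replicate 3, or replicates 1 and 2 together, brought it to -0.02, leaving out replicate 4 brought it to -0.22, and array weights gave -0.05. Those with the smallest unadjusted p, Efnb2, Gja5 and Sox17, differed by -0.26 ± 0.15, -0.21 ± 0.12 and -0.19 ± 0.13 (SE). Gja5 was dim, at group means of 2.93 and 3.13. Among the 6 higher genes Selp differed by 0.18 ± 0.21 and Cav1 by 0.15 ± 0.13 (SE). The 10 genes and these 3 lists were not tested against each other.

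The ligands and other receptors of the pathway of Kdr were also measured. Of 13 VEGF and angiopoietin genes, 6 had higher and 7 lower means with rilpivirine, and the median was -0.03, as over all genes, and 0.017 with centred arrays or 0.028 after a further quantile normalization. The ligands Vegfa, Vegfb, Vegfc, Vegfd and Pgf differed by -0.07, 0.08, -0.09, -0.10 and -0.03 log2. The receptors Flt1 and Flt4 differed by 0.07 and 0.05, the co-receptors Nrp1 and Nrp2 by -0.03 and 0.11, and Angpt1, Angpt2 and Tie1 by 0.05, -0.03 and -0.04. Tek, named above, had the largest difference of these 13 genes, 0.18 ± 0.12 (SE, interval -0.07 to 0.44). Angpt1, Angpt2, Pgf and Vegfd were dim, with means of 2.75 to 3.21. Of 11 angiocrine factors and flow-responsive genes 6 were higher and 5 lower (median 0.03, and -0.05 without rilpivirine replicate 2 or -0.04 with the small nucleolar RNA covariate), among them Klf4 at 0.21 ± 0.14, Bmp6 at -0.13 ± 0.13 and Wnt2 at -0.12 ± 0.15 (SE).

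Of 14 other scavenger and Fc receptors, from several cell types, 4 were higher and 10 lower (median -0.14), where 43.1% of all genes were higher. Leaving out rilpivirine replicate 2 moved it to -0.05 and leaving out rilpivirine replicate 3 to -0.21. Both the covariate for small nucleolar RNA and renewed quantile normalization gave -0.06. Beside Fcgr2b at 0.10, the activating Fc receptor Fcgr3 measured 4.78, 4.81, 4.76 and 5.01 log2 with rilpivirine and 5.19, 5.20, 5.37 and 5.36 in controls. These groups did not overlap, as in 1.73% of all genes on the lower side, and the difference was -0.44 ± 0.11 (SE, limma adjusted p = 0.777). Fcer1g, the signalling chain of activating Fc receptors, differed by -0.31 ± 0.13 (SE), and the macrophage scavenger receptor Marco by -0.47 ± 0.32.

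**Figure D5:**
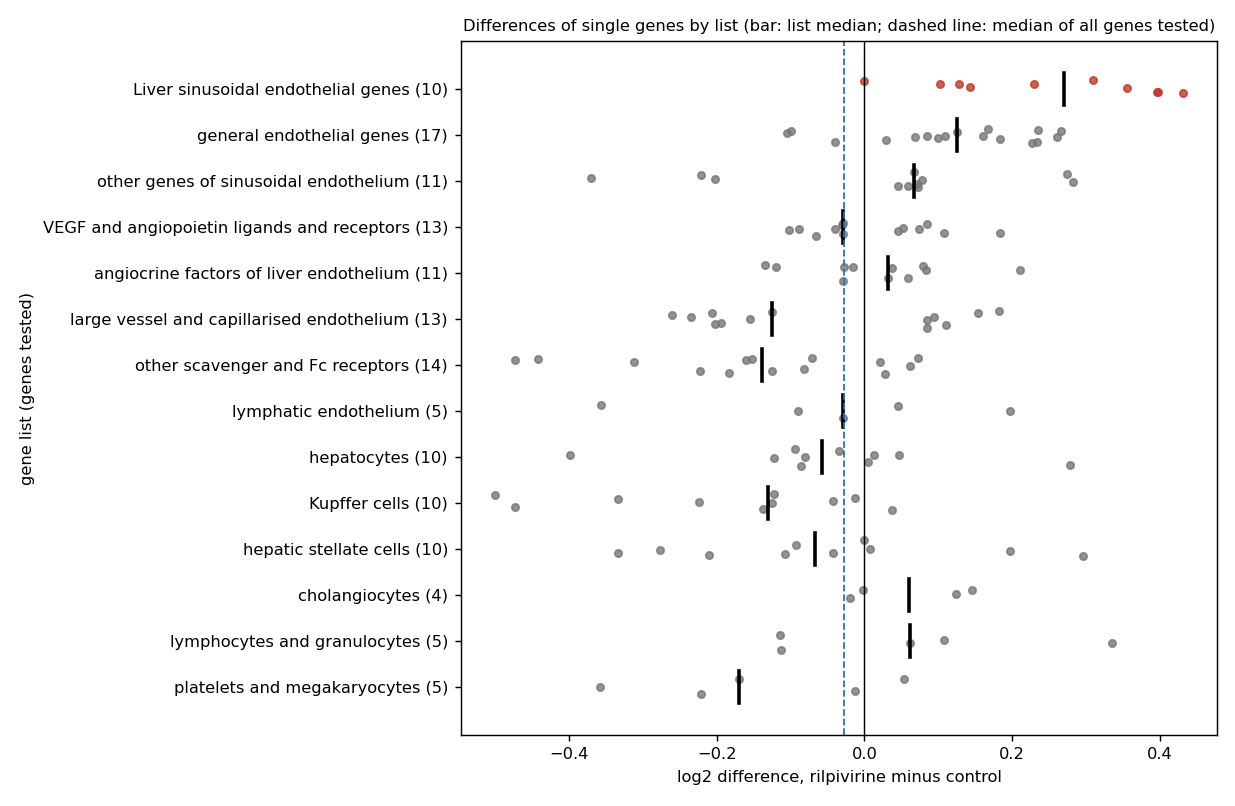
Log2 difference, rilpivirine minus control, of single genes (points) in the set of 10 (red) and in 13 other gene lists (grey), with the number of genes tested in brackets, the list median as a black bar and the median of all genes as a dashed line. The 10 genes have the highest median, 0.27, and platelet and scavenger and Fc receptor genes the lowest, -0.17 and -0.14; a gene on several lists is drawn in each.

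Markers of the other cells that a liver sample holds were measured in the same fit. The hepatocyte marker Alb, which encodes albumin, measured 13.22 to 13.37 log2 in the 8 samples, and of 10 hepatocyte genes 4 were higher and 6 lower (median -0.06, and 0.0041 without control replicate 3). Of 10 Kupffer cell genes 1 was higher and 9 lower (median -0.13, and -0.0060 without rilpivirine replicate 4), among them C1qb at -0.50 ± 0.14 and C1qa at -0.33 ± 0.11 (SE). Vsig4, Timd4 and Cd5l of the same list were close to level, at -0.01, -0.04 and 0.04. The mean of the Kupffer cell list deviated by -0.33 to 0.14 log2 in the rilpivirine samples and by -0.08 to 0.27 in the controls. Its defining gene Clec4f differed by -0.13 ± 0.18 (SE). Stellate cell genes had 3 of 10 higher and 7 lower (median -0.07). That median was 0.13 without rilpivirine replicates 1 and 2 together and 0.01 after a further quantile normalization. Among the 7 lower genes were Lrat, the retinol esterifying enzyme, at -0.21 ± 0.21 and Cygb at -0.33 ± 0.10 (SE). Among the 3 higher genes were Ngfr at 0.30 ± 0.20 and Reln at 0.20 ± 0.14 (SE). Platelet genes, a list of cells that also use Pecam1, had 1 of 5 higher and 4 lower (median -0.17, and 0.12 without rilpivirine replicates 1 and 2 together). Their mean spanned -0.34 to 0.09 with rilpivirine and -0.27 to 0.31 in controls. Gp9 differed by -0.36 ± 0.11, Pf4 by -0.17 ± 0.14 and Ppbp by -0.01 ± 0.30 (SE). Clec1b, at -0.22 ± 0.28 (SE), was also on the list of other sinusoidal endothelial genes. The rest of the platelet list had group means of 3.68 to 4.62 log2. The lymphocyte and granulocyte genes had 3 of 5 higher and 2 lower (median 0.06, and -0.05 or 0.15 without rilpivirine replicate 3 or 4), with the B cell gene Cd79a at 0.34 ± 0.14 (SE). Their mean spanned -0.19 to 0.39 with rilpivirine and -0.07 to 0.07 in controls, and 3 others, Ms4a1, S100a8 and S100a9, were below the filter. Lymphatic genes, of vessels that also use Lyve1, had 2 of 5 higher and 3 lower (median -0.03, and 0.017 with centred arrays; mean -0.07 to 0.02 with rilpivirine and -0.14 to 0.21 in controls), with Pdpn at -0.03 and Prox1, also used by hepatocytes, at -0.36 ± 0.15. Of 4 cholangiocyte genes 2 were higher and 2 lower (median 0.06). In these 13 lists 0 of 120 genes tested passed over all genes, and their smallest adjusted p was 0.777 in limma. Lower at an unadjusted limma p under 0.05 were 2 scavenger and Fc receptor, 2 Kupffer, 1 stellate, 1 platelet and 1 lymphatic gene. Among all genes 3.21% were lower at that p. The lymphocyte and granulocyte list had 1 higher gene, against 2% of all genes. Fcgr3, C1qb, Gp9, Cygb and C1qa had a smaller p than any of the 10 genes. Their groups did not overlap, as in 1.73% of all genes on the lower side. The part of other cells in the differences of the 10 genes was not tested.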

How the data were processed

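Snap-frozen liver gave total RNA by Trizol extraction, of which 300 ng went into labelling for 1-colour Affymetrix whole-transcript arrays, per the labels' protocols. The authors deposited log2 expression values of 41345 probe sets from RMA (background correction, quantile normalization, probe summary), and also named limma, per the submitters' processing notes. Their versions were not given in the sources used here. Quantile normalization is meant to remove differences in total signal between samples. The array medians of the deposited values still ran from 3.33 to 3.45 log2, the highest in rilpivirine replicate 2. The number of arrays limits the precision.

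Probe sets with 1 gene symbol in the platform annotation were used (23521; 1814 had several and 16010 none listed), the highest mean of a symbol was kept, and means below the 25th percentile of all genes (2.72) were left out. The groups were compared in R 4.3.3 with limma 3.58.1 (lmFit, eBayes), a two-sided test with no covariate, with Benjamini-Hochberg adjustment over 16635 genes and a threshold of 0.05; scripts were tested on simulated data. Pairs of members were compared with exact permutation tests over samples. The lists were described by counts and medians. The members and all lists, pairs, motifs and alternatives were chosen with earlier results of these data known. Named besides the members were the 3 genes with the smallest p of a list, all VEGF and angiopoietin genes, the 5 closest profiles and defining markers of other cells, of which only some are printed. Cdh5, Esam, Ramp2, Pdpn, Selp, Cav1, Vsig4, Timd4 and Cd5l were added after their values were seen. Alternatives were other moderation, array weights, centring, a further quantile normalization, other filters, the mean of probe sets, the replicate block, samples left out and a small nucleolar RNA covariate. Python 3.11.15 with matplotlib 3.10.9 drew the figures.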

Additional observations from a re-analysis of the deposited data

Results flagged for a closer look

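Among 132 groups of 4 values (66 genes in 2 groups), 8 held a sample far from the other 3, where chance gives about 1 in 20 groups, or 6.6. Among the 10 genes only Oit3 had such a sample: rilpivirine replicate 4 measured 7.64 log2, and the other 3 of its group 8.14 to 8.21. Control replicate 1 was low in Wnt2 (3.98, against 4.50 to 4.57) and in the Kupffer cell gene Clec4f (7.54, against 8.03 to 8.13). Control replicate 2 was low in the hepatocyte gene Tdo2 (9.90, against 10.41 to 10.43), in C1qc (6.67, against 7.03 to 7.09) and in Cd79a (3.24, against 3.47 to 3.51). Control replicate 3 was high in Klf4 (4.41, against 4.06 to 4.11), and rilpivirine replicate 1 was low in Sox17 (4.33, against 4.65 to 4.68).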

How the results depend on the processing

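The 18 alternatives gave 0 genes past an adjusted p of 0.05, with 867 genes at an unadjusted p under 0.05 in the reported setting and 578 to 1524 when a sample was left out, the highest without rilpivirine replicate 4. Of 180 member values, 169 kept their direction and none passed the threshold. The median of the 10 ran from 0.14 (without rilpivirine replicates 1 and 2 together) to 0.34, and 8 to 10 members were higher. Pecam1 changed sign with array weights (0.0050), centred arrays (0.045) and a further quantile normalization (0.075), and ran from -0.051 to 0.037 with a sample left out. Gpr182 was -0.032 with the small nucleolar RNA covariate and -0.064 without rilpivirine replicates 1 and 2 together. Lyve1 ran from -0.029 to 0.28 with a sample left out. The within-array difference of Lyve1 and Stab2 was 0.028 without rilpivirine replicates 1 and 2 together, that of Stab2 and Stab1 ran from -0.030 to 0.087 with a sample left out, and that of Kdr and Pecam1 lay between 0.31 and 0.52 in the 12 alternatives run for it, which left out the covariate (Kdr 0.22 and Pecam1 -0.062 there). The cause of these changes was not tested. With other filters 584 genes with the 50th percentile filter and 1089 without a filter had an unadjusted p under 0.05. Samples of the same replicate number had correlations of deviations of -0.25, 0.46, -0.09 and 0.07 for numbers 1 to 4. These values cannot settle whether the numbers pair the samples. With the replicate block 1071 genes had an unadjusted p under 0.05 and 0 passed. The smallest adjusted p in limma was then 0.230, against 0.595 in the reported setting. With that block 9 members were higher, with a median of 0.27. The block could not be fitted in the exact tests of pairs.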
